A study of Homo sapiens with 15 samples.

Results

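The genes described here were 10 genes of the smooth-muscle type contractile apparatus (ACTA2, ACTG2, TAGLN, CNN1, MYL9, TPM1, TPM2, MYH11, LMOD1 and CALD1), followed by symbol through hiPSCs, retinal organoids and the Müller glial cells grown out of them. Each symbol matched 1 of the 19684 genes listed in the tables. These genes were selected on their measured FPKM and counts in these same libraries, so their levels and changes are given as a description and without p-values.

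In smooth muscle, actin filaments slide along filaments of type II myosin, and force starts when the regulatory light chain of myosin is phosphorylated by myosin light chain kinase. Tropomyosins, calponin, transgelin and caldesmon lie along the actin filament and tune its use by myosin, and leiomodin starts new filaments. Many of these genes are switched on by the serum response factor SRF together with a cofactor of the myocardin family, and apart from the smooth muscle of vessels they are known from pericytes, myofibroblasts and cultured adherent cells.

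All libraries derived from 1 human induced pluripotent stem cell line, BC1-GFP, which carries a GFP reporter. RNA was sequenced from undifferentiated hiPSCs kept on Matrigel, from the neural retina layers of retinal organoids at day 70 (D70-RO) and day 150 (D150-RO), several organoids pooled per experiment, and from induced Müller glial cells (iMGCs) at passages 1 and 5 (P1 and P5). The iMGCs had been dissociated from organoids of day 150 and expanded flat on Matrigel. The iMGC medium and the organoid medium both held serum, and the hiPSCs were kept in a different medium. A supplement of the organoid medium was exchanged between day 70 and day 150, so supplement and age cannot be told apart. Passage and plating cannot be told apart from the cell type in a comparison with organoids. There were 3 libraries per group and 15 in all. The descriptions of the samples give 3 independent experiments per group, while the description of the whole series gives 2 for hiPSCs and organoids, and where libraries were not independent the p-values below cover only the spread between them, which may be technical.

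Library totals lay between 11349600 and 20398755 expected counts, the lowest being D70-RO replicate 2. The labels of hiPSCs and D150-ROs held up in their marker genes, and that of the iMGCs did so only in part. Summed FPKM (fragments scaled for transcript length and sequencing depth) of POU5F1, NANOG, TDGF1 and LIN28A was 2949 to 3115 in hiPSCs and at most 8.21 in any other library. The photoreceptor genes CRX, RCVRN, NRL and ARR3 summed to 674 to 680 FPKM in D150-ROs and to at most 0.56 FPKM in iMGCs. The iMGCs carried VIM at 2160 FPKM at P1 and 2858 FPKM at P5 on average, but 6 of the 13 Müller glia markers listed were under 1 FPKM on average at P1 and 5 at P5. In the edgeR comparison described below, 8 of the 12 tested were called lower at P1 than in D150-ROs and 3 higher. Their median log2 fold change was -2.55, and of all genes 24.1% were called lower and 20.0% higher. RLBP1, the retinaldehyde-binding protein of Müller glia, averaged 33.5 FPKM in D150-ROs and had no count in P1 iMGCs, and the transcription factors RAX and SOX2 averaged 0 and 0.553 FPKM at P1.

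Promoters of RefSeq (GRCh38.p14, 250 bases before the annotated start) were available for 7 of the 10 genes, with 12 starts between them. They were searched for the CArG box, the palindromic 10-base site of SRF with 6 A or T bases inside, and for the MCAT motif CATTCC on both strands. ACTG2, the actin with the largest difference between D150-ROs and P1 iMGCs, was the only 1 of the 7 with a CArG box of this strict form, and it had 2. ACTA2 had MCAT upstream of its shorter transcript unit, and LMOD1 and CALD1 had it as well. The same ACTA2 promoter also held ccctatatgg and ccttgtttgg, each 1 base away from the strict CArG form. Near matches of this kind were not counted for any promoter, so the strict search does not set ACTG2 apart from ACTA2 in looser sites. Of all 35116 promoters, 1.16% held the CArG box and 11.9% MCAT in the same window. The 2 sequences shown come from actin genes with higher FPKM in iMGCs than in organoids, and each holds a motif. Of the 12 starts, 1 held the CArG box and 4 held MCAT. The starts of CNN1, TPM1 and TPM2, the other start of ACTA2 and some starts of CALD1 held neither motif and are not shown. Capitals mark the CArG boxes in ACTG2, which begin at positions -110 and -73 from the start, and MCAT in ACTA2, read as GGAATG at position -183. The 2 kinds of motif do not overlap in them. A match is a description of the letters and not of a bound site, and a missing match says only that these letters are not in this window.
ACTG2, chr2:73892758-73893007, plus strand: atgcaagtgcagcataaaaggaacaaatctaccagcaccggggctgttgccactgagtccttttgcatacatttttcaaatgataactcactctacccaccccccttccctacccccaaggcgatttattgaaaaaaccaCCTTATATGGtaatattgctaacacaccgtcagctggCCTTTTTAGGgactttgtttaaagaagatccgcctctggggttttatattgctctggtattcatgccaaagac
ACTA2, chr10:88952774-88953023, minus strand: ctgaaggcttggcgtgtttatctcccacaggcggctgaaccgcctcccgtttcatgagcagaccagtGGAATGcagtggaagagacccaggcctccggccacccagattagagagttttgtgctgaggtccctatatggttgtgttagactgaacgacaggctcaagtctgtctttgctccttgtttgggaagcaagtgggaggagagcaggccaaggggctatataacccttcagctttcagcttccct

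The actins form the thin filament. ACTA2 (ENSG00000107796, GENCODE 29 on GRCh38, chr10:88935074-88991339, minus strand) encodes the actin of vascular smooth muscle and measured 2.81, 3.05 and 4.32 FPKM in the hiPSC libraries, 17.89, 29.49 and 20.58 in the D70-ROs, 1.57, 0.94 and 1.67 in D150-ROs, 240.61, 265.86 and 262.72 in P1 iMGCs and 282.71, 294.23 and 280.68 in P5 iMGCs. Every neighbouring pair in the order P5, P1, D70-RO, hiPSC and D150-RO was free of overlap. With LMOD1 it was the only member with a fitted level higher in D70-ROs than in hiPSCs, and in D150-ROs it was lower than in both.

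ACTG2 (ENSG00000163017, chr2:73892314-73919865, plus strand), the enteric smooth muscle actin, measured 1.41, 2.79 and 1.86 FPKM in the hiPSC libraries, 0 in all 3 D70-RO libraries and 0, 0.23 and 0.34 in D150-ROs. It reached 408.78, 471.56 and 397.61 FPKM in P1 iMGCs and 280.52, 302.55 and 317.71 in P5 iMGCs. The D70-RO and D150-RO ranges overlapped at 0, and all other neighbours were apart. At P1 its mean of 426 FPKM ranked 113th of all genes, against a rank of 14345 in D150-ROs.

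**Figure D1:**
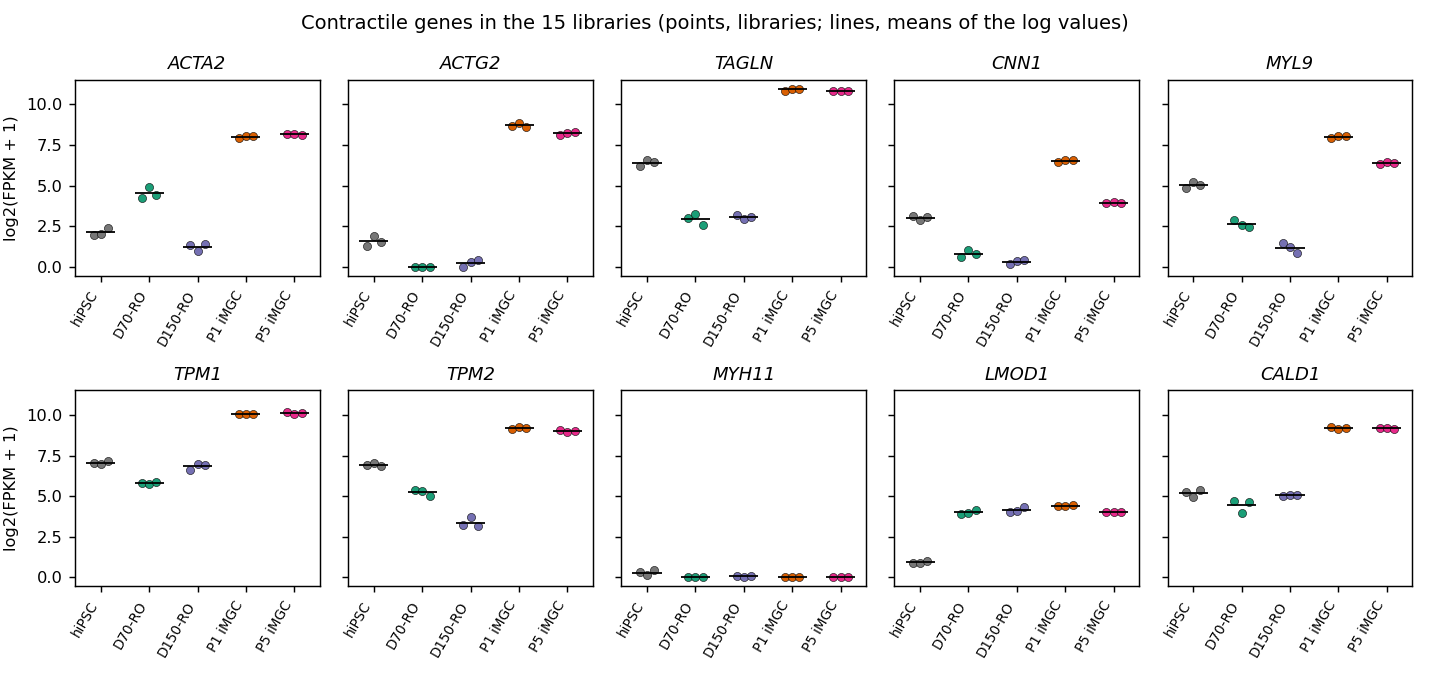
Level of each of the 10 genes as log2(FPKM + 1) in the 15 libraries, with 1 point per library and a line at the mean of the log values of each group of 3. LMOD1 is lowest in hiPSCs and between 14.18 and 20.69 FPKM elsewhere, and MYH11 stays at or under 0.35 FPKM throughout. The other genes, which were chosen on these levels, stand highest in the iMGC libraries.

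The genes that dress the actin filament reached the highest levels. TAGLN (ENSG00000149591, chr11:117199321-117204782, plus strand), which encodes transgelin, an actin cross-linker, measured 73.17, 92.77 and 88.17 FPKM in the hiPSC libraries, 7.15, 8.61 and 4.95 in the D70-ROs, 8.21, 6.74 and 7.42 in D150-ROs, 1848.17, 2006.57 and 1966.64 in P1 iMGCs and 1843.57, 1788.76 and 1837.51 in P5 iMGCs. The organoid groups overlapped each other, and the P1 and P5 ranges lay just apart. Its mean ranked 21st of all genes at P1 and 22nd at P5.

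CNN1 (ENSG00000130176, chr19:11538717-11550323, plus strand) encodes calponin 1, an actin-binding inhibitor of the myosin ATPase. It measured 7.65, 6.51 and 7.35 FPKM in the hiPSC libraries, 0.49, 1.06 and 0.69 in the D70-ROs, 0.12, 0.27 and 0.33 in D150-ROs, 86.53, 93.56 and 93.76 in P1 iMGCs and 14.24, 15.11 and 13.99 in P5 iMGCs. No neighbouring groups overlapped, and the P5 libraries stood nearer to the hiPSCs than to P1.

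Caldesmon blocks the binding of myosin to actin, and its gene CALD1 (ENSG00000122786, chr7:134744252-134970728, plus strand) makes smooth muscle and nonmuscle forms. It measured 36.89, 30.12 and 40.98 FPKM in the hiPSC libraries, 24.75, 14.95 and 24.42 in the D70-ROs, 32.00, 33.19 and 32.28 in D150-ROs, 624.54, 561.60 and 599.19 in P1 iMGCs and 601.71, 589.42 and 574.41 in P5 iMGCs. The 2 iMGC groups overlapped, and so did hiPSCs and D150-ROs.

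The tropomyosins wind along the actin filament. TPM1 (ENSG00000140416, chr15:63042632-63071915, plus strand) measured 130.17, 124.62 and 141.52 FPKM in the hiPSC libraries, 54.59, 52.55 and 57.74 in the D70-ROs, 98.07, 123.92 and 120.74 in D150-ROs, 1051.07, 1084.83 and 1083.86 in P1 iMGCs and 1159.70, 1066.69 and 1118.55 in P5 iMGCs. TPM2 (ENSG00000198467, chr9:35681992-35690121, minus strand) measured 118.50, 134.21 and 117.69 FPKM in the hiPSC libraries, 41.57, 38.76 and 31.25 in the D70-ROs, 8.21, 12.47 and 7.84 in D150-ROs, 567.71, 610.34 and 599.92 in P1 iMGCs and 536.96, 495.37 and 518.73 in P5 iMGCs. The 2 genes stood close in hiPSCs and apart in D150-ROs, where TPM1 had a mean of 114 FPKM and TPM2 9.51 FPKM.

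The myosin subunits went separate ways. MYL9 (ENSG00000101335, chr20:36541484-36551447, plus strand) encodes a regulatory light chain of smooth muscle and nonmuscle myosin. It measured 28.50, 36.24 and 32.12 FPKM in the hiPSC libraries, 6.27, 4.91 and 4.40 in the D70-ROs, 1.71, 1.34 and 0.78 in D150-ROs, 240.26, 262.51 and 262.94 in P1 iMGCs and 77.98, 87.89 and 81.30 in P5 iMGCs, with no overlap between any groups. MYH11 (ENSG00000133392, chr16:15703172-15857033, minus strand), the heavy chain that defines differentiated smooth muscle, had 0.25, 0.12 and 0.35 FPKM in hiPSCs and at most 0.07 FPKM in every other library. Over the 3 libraries of a group it had 95 counts in hiPSCs, 3 in D70-ROs, 17 in D150-ROs, 2 in P1 iMGCs and 7 in P5 iMGCs. It passed the limit on low values in no comparison and was not tested. By its counts the ratio of P1 iMGCs to D150-ROs was 0.177 (95% exact counting interval 0.0198 to 0.745), and that of P5 to P1 was 3.66 (0.696 to 36.1), intervals that cover counting error only.

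LMOD1 (ENSG00000163431, chr1:201896452-201946588, minus strand), the smooth muscle leiomodin, measured 0.89, 0.88 and 0.98 FPKM in the hiPSC libraries, 14.18, 14.43 and 16.60 in the D70-ROs, 15.38, 16.02 and 18.87 in D150-ROs, 19.71, 19.79 and 20.69 in P1 iMGCs and 15.13, 15.62 and 15.42 in P5 iMGCs. It was low only in hiPSCs, and the D70-RO, P5 and D150-RO ranges overlapped their neighbours. Summed over the 10 genes, FPKM was 400 to 435 in hiPSCs, 161 to 167 in D70-ROs, 165 to 195 in D150-ROs, 5087 to 5377 in P1 iMGCs and 4656 to 4813 in P5 iMGCs. In bulk RNA such as this, fewer cells of a type and less RNA per cell cannot be told apart.

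Changes were fitted with edgeR on the counts of 2 groups at a time, over all genes with at least 1 FPKM in at least 3 of the 6 libraries. A call needed at least a 2-fold change and a Benjamini-Hochberg adjusted p under 0.05. Successive comparisons share libraries. The calls on the 10 genes come from the contrasts that chose them, so the share of all genes called stands beside each count and nothing is read from it.

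From hiPSCs to D70-ROs 6 of the 9 genes tested were called lower and 2 higher, where 21.1% and 22.5% of all tested genes were. The median of the 9 log2 fold changes was -1.75, and it stays there with ACTG2 at its bound. CNN1 had a log2 fold change of -3.72 ± 0.24 (SE), TAGLN of -3.65 ± 0.19, MYL9 of -2.93 ± 0.17, TPM2 of -1.75 ± 0.14 and TPM1 of -1.47 ± 0.11. ACTG2 had 108 counts in hiPSCs and none in D70-ROs, which at a floor of 3 counts over the group gives a log2 bound of -5.04 or lower. LMOD1 was higher by 3.90 ± 0.15 and ACTA2 by 2.55 ± 0.26, while CALD1 at -0.87 ± 0.16 was not called.

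From hiPSCs to D150-ROs 6 of 9 were called lower and 1 higher, against 29.0% and 29.8% of all genes, and the median was -3.43. MYL9 and CNN1 stood at -5.18 ± 0.16 and -5.17 ± 0.28, ACTG2, with 5 counts in D150-ROs, at -4.40 ± 0.57, which became -5.05 without D150-RO replicate 3, TPM2 at -3.93 ± 0.16, TAGLN at -3.43 ± 0.12 and ACTA2 at -1.62 ± 0.26. With limma on log2(FPKM + 1), which understates changes of low genes, ACTA2 stood at -0.87 and was not called. LMOD1 was higher by 3.83 ± 0.13. TPM1 (-0.46 ± 0.10) and CALD1 (-0.62 ± 0.10) were not called.

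Between the organoid ages 3 of the 7 genes tested were called lower in D150-ROs and 1 higher, against 16.7% and 16.6% of all genes, with a median of -0.07. ACTA2 had a log2 fold change of -4.17 ± 0.29, MYL9 of -2.24 ± 0.22 and TPM2 of -2.18 ± 0.19. TPM1, at 1.02 ± 0.10, lay just past the 2-fold limit, and its call was lost without D70-RO replicate 1 (0.98), D150-RO replicate 2 (0.96) or D150-RO replicate 3 (0.99). TAGLN (0.22 ± 0.20), CALD1 (0.25 ± 0.15) and LMOD1 (-0.07 ± 0.11) were not called, and LMOD1 turned to 0.14 with limma on log2(FPKM + 1). ACTG2 and CNN1 did not pass the limit on low values.

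From D150-ROs to P1 iMGCs 8 of 9 were called higher and none lower, against 20.0% and 24.1% of all genes, with a median of 8.23 beside -0.05 over all genes. ACTG2 stood at 12.68 ± 0.15 with only 5 counts on the organoid side, and CNN1 at 9.24 ± 0.12 with 16. Without D150-RO replicate 3 the value of ACTG2 was 13.3, the range with a library left out was 12.15 to 13.30, and limma on log2(FPKM + 1) gave 8.49. ACTA2 was higher by 8.36 ± 0.10, TAGLN by 8.29 ± 0.07, MYL9 by 8.23 ± 0.09, TPM2 by 6.46 ± 0.10, CALD1 by 5.01 ± 0.06 and TPM1 by 3.87 ± 0.07. LMOD1, at 0.90 ± 0.07, was not called. The groups come from tables that the authors scaled separately, so the fit used raw counts. Scaling by library totals alone moved the median of all genes to -0.69, so FPKM ratios between these groups sit below the fitted values.

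**Figure D2:**
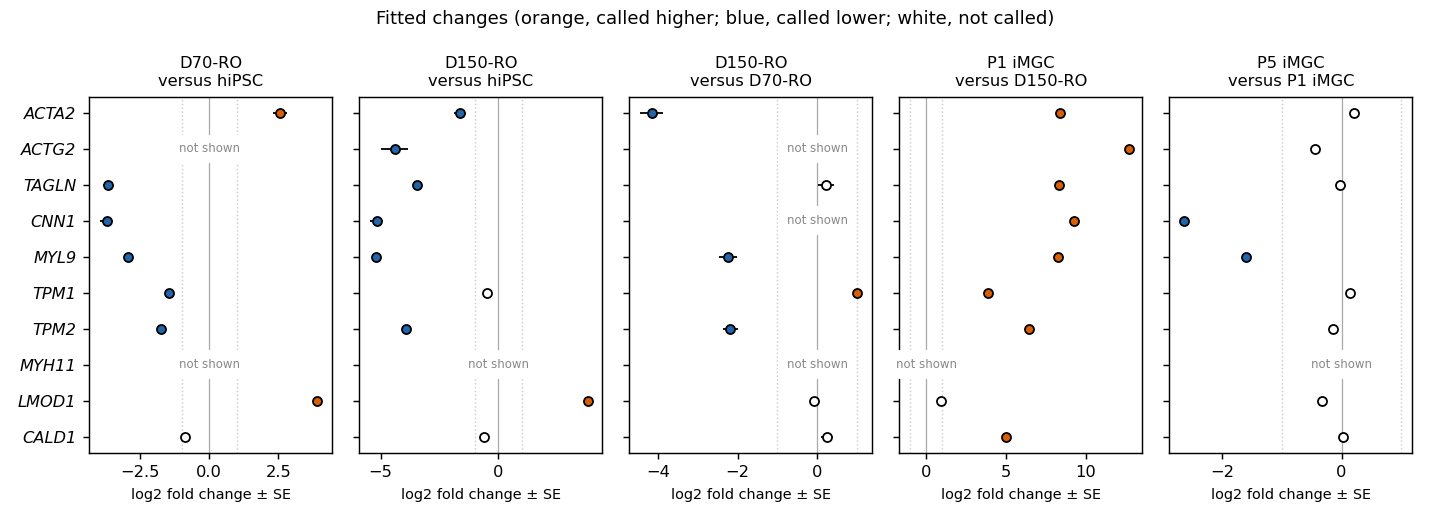
Log2 fold change ± SE of each gene in the 5 comparisons, each panel with its own axis and dotted lines at 2-fold. Called genes are coloured, and genes that were not tested, and ACTG2 where D70-ROs had no count, are not shown. In P1 iMGCs versus D150-ROs 8 genes lie right of the dotted line, where 20.0% of all tested genes were called higher.

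From P1 to P5 iMGCs 2 of 9 were called lower and none higher, against 0.977% and 1.94% of all genes, with a median of -0.14. CNN1 stood at -2.64 ± 0.06 and MYL9 at -1.60 ± 0.05, and their P5 means were 15.8% and 32.3% of the P1 means. ACTG2 (-0.45 ± 0.05), LMOD1 (-0.32 ± 0.05) and ACTA2 (0.21 ± 0.04) did not reach a 2-fold change, although their P1 and P5 ranges did not overlap, nor did those of TPM2 and TAGLN. TAGLN (-0.03 ± 0.04) and CALD1 (0.03 ± 0.04) changed sign in some alternatives, and TPM1 (0.13 ± 0.04) and TPM2 (-0.14 ± 0.04) lay between.

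**Figure D3:**
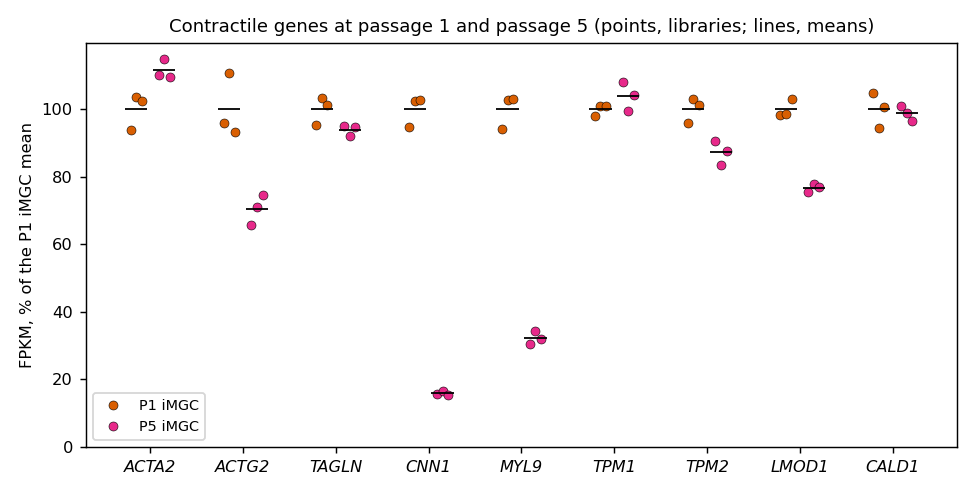
FPKM of 9 genes in the P1 and P5 iMGC libraries as a percent of the P1 mean of that gene, 1 point per library and a line at each mean. CNN1 at 15.8% and MYL9 at 32.3% lie far below the other genes, which keep 70.5% to 111% of their P1 mean, and MYH11 is left out because it had 2 counts at P1.

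Set against the other genes of their protein families, the contractile genes took unequal shares of the summed FPKM. TAGLN held 54.2% ± 2.26 (SD, n = 3) of the transgelins in hiPSCs, 4.98% ± 1.15 in D70-ROs, 6.22% ± 0.50 in D150-ROs, 89.7% ± 0.51 at P1 and 90.6% ± 0.14 at P5, the rest being TAGLN2 and TAGLN3. TPM1 and TPM2 made up 41.8% ± 2.00 of the tropomyosins in D150-ROs and 64.0% ± 0.49 at P1, the rest being TPM3 and TPM4. These sums are per gene and do not separate muscle from nonmuscle forms of a gene. ACTA2 and ACTG2 together came to 8.0% ± 0.59 of the actins at P1 and 6.88% ± 0.32 at P5, and to at most 0.342% in any library of the other groups. ACTB and ACTG1, the cytoplasmic actins, supplied nearly all of the remainder, with ACTG1 at 4983 FPKM at P1.

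CNN1 held 0.167% ± 0.075 of the calponins in D150-ROs, 15.0% ± 0.38 at P1 and 2.44% ± 0.11 at P5, next to 1.79% ± 0.24 in hiPSCs. MYL9 went from 0.186% ± 0.072 of the nonsarcomeric light chains in D150-ROs to 12.8% ± 0.20 at P1 and 4.58% ± 0.46 at P5. MYH11 held at most 0.00382% of the nonsarcomeric heavy chains in any iMGC library, where MYH9, the heavy chain of nonmuscle myosin, averaged 860 FPKM at P1. LMOD1 supplied 9.66% ± 1.26 of the leiomodins and tropomodulins in hiPSCs and 40.0% to 50.7% on average in the other groups.

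**Figure D4:**
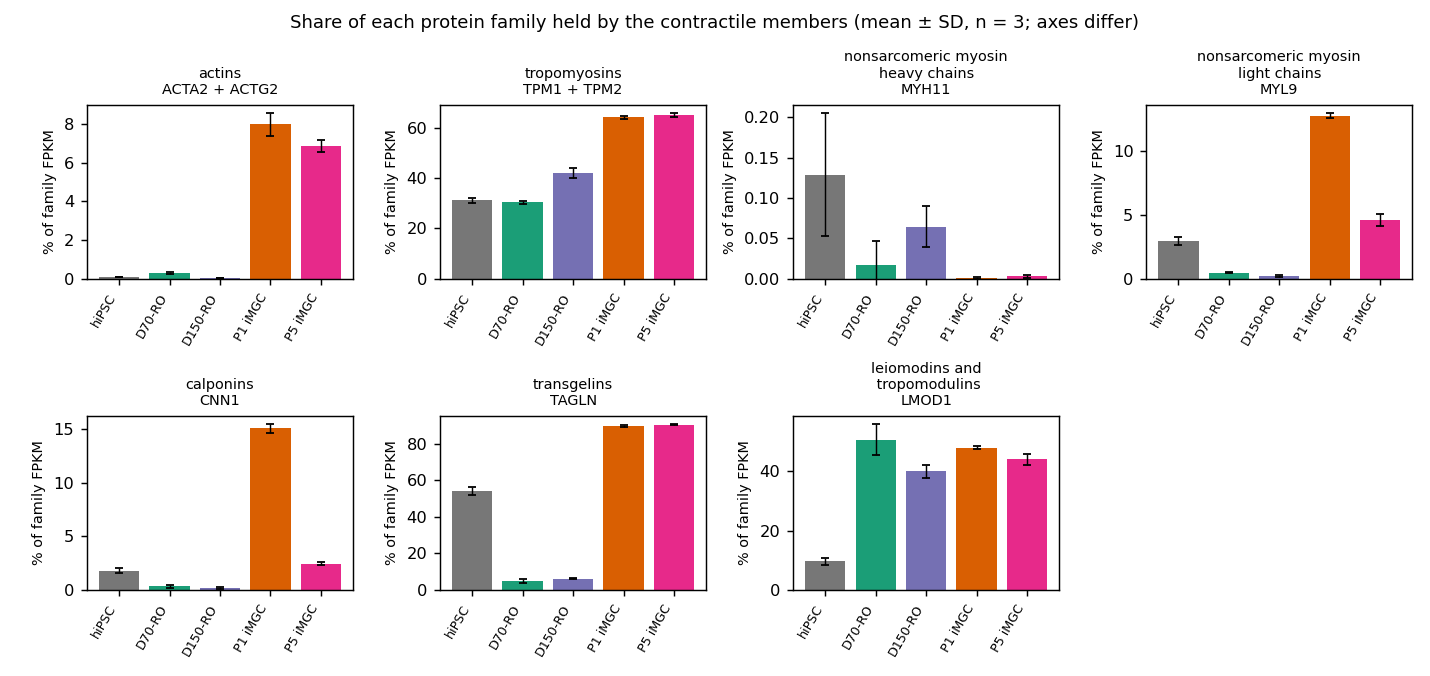
Percent of the summed FPKM of each protein family that comes from the contractile genes named above each panel, as mean ± SD of 3 libraries, with axes that start at 0 and differ between panels. The TAGLN bars of about 90% and the actin bars of 8.0% and 6.88% in iMGCs differ in size, and the CNN1 and MYL9 bars are lower at P5 than at P1.

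The ratio of count to FPKM in each library also gives the mean transcript length that the authors' quantification assigned to a gene, weighted by abundance, and it was read where all 3 libraries of a group had at least 5 FPKM. For LMOD1 it lay between 3960 and 3971 bases in organoids and iMGCs, where the longer transcript of GENCODE 29 has 3970. For ACTA2 it was 1103 ± 22.0 bases (SD, n = 3) in D70-ROs, 1333 ± 3.03 at P1 and 1328 ± 3.14 at P5, beside annotated transcripts of 744, 878 and 1349 bases. MYL9, with transcripts of 1024 and 2821 bases, had 2017 ± 43.2 in hiPSCs, 1734 ± 26.4 at P1 and 1704 ± 34.4 at P5. TAGLN had 988 ± 5.19 in hiPSCs, 1344 ± 94.2 in D150-ROs and 1031 ± 2.40 at P1. TPM1 had 1469 ± 25.1 at day 70 and 1671 ± 17.3 at day 150. With 3 libraries against 3 an exact permutation test cannot go below a p of 0.1, so these lengths were not tested, and the transcripts behind them are not resolved in the tables.

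Reads can be shared between genes. Of all 75-base stretches in the coding transcripts of the 10 genes, none were found in another coding gene for 8 of them, and 0.316% for TPM1 and 0.301% for MYH11, in the latter case in MYH9. Exons of ACTA2 overlap those of FAS on the opposite strand over 380 bases and exons of TAGLN those of PCSK7 over 446 bases, and without stated strand reads from these bases cannot be told apart. FAS measured 7.81 to 8.32 FPKM and PCSK7 25.25 to 26.79 FPKM at P1, far below ACTA2 and TAGLN. In organoids this was so only for ACTA2 in D70-ROs, at 17.89 to 29.49 FPKM beside FAS at 1.14 to 1.48. In D150-ROs PCSK7 measured 13.73 to 14.82 FPKM beside TAGLN at 6.74 to 8.21, and FAS 0.9 to 1.13 beside ACTA2 at 0.94 to 1.67. In D70-ROs PCSK7 measured 8.66 to 9.33 FPKM beside TAGLN at 4.95 to 8.61. The part of such reads in the organoid levels of ACTA2 and TAGLN was not tested.

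Of 90 other genes of the contractile pathway, 4 of which stand on more than 1 list, 36 of the 62 tested were called higher and 10 lower in P1 iMGCs than in D150-ROs by edgeR with Benjamini-Hochberg adjustment over all genes, with a median log2 fold change of 1.60, where 20.0% of all genes were higher and 24.1% lower. From hiPSCs to D70-ROs 12 were higher and 22 lower of 62 (median -0.25), against 22.5% and 21.1% of all genes. From hiPSCs to D150-ROs 14 were higher and 25 lower of 61 (median -0.52), against 29.8% and 29.0%, and between organoid ages 12 and 11 of 60 (median 0.14), against 16.6% and 16.7%. From P1 to P5 only CSRP1 was called higher and HSPB6, PDLIM3 and GATA6 lower, of 59, against 1.94% and 0.977% of all genes.

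Among 30 other smooth muscle genes, 17 of 26 tested were higher and 4 lower in P1 iMGCs than in D150-ROs (median 2.47). CNN2, MYOCD, MYLK and PPP1R14A were also on the lists of nonmuscle relatives or regulators, so the counts per list share them. CSRP1, a LIM protein of the actin cytoskeleton, was higher by 4.97 ± 0.10 (SE, edgeR, adjusted p = 1.8e-16), and ACTN1, the actin cross-linker alpha-actinin 1, went from 24.77 to 26.63 FPKM in D150-ROs to 460.73 to 475.34 FPKM at P1, a log2 fold change of 4.84 ± 0.06 (edgeR, adjusted p = 1.4e-18). SYNM and PGM5 were lower, with log2 fold changes of -2.03 and -1.67. KCNMB1, CASQ2, ITGA8 and PLN, 4 genes named after their values were seen, averaged under 1 FPKM in every group and were tested in no comparison.

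From hiPSCs to D70-ROs VCL and ACTN1 were both at -3.03 and CSRP1 at -2.39, and PGM5, FBXO32 and MYOCD were higher by 7.46, 4.40 and 3.41. From hiPSCs to D150-ROs CSRP1 (-4.23), CNN2 (-3.63) and PPP1R14A (-3.29) were lower and PGM5 (7.18), SYNM (4.60) and FBXO32 (4.56) higher. Between organoid ages MCAM (3.21) and SYNM (2.40) were higher and MYOCD (-4.14), PPP1R14A (-3.50) and SYNPO2 (-2.23) lower in D150-ROs. From P1 to P5 CSRP1 was higher by 1.38 ± 0.05 (edgeR, adjusted p = 3.3e-17), HSPB6, a small heat shock protein of muscle, was lower at -2.60 ± 0.37, and PDLIM3 at -1.20 ± 0.18. CSRP1 thus differed in direction from CNN1 and MYL9 in the same libraries.

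The nonmuscle relatives of the 10 genes were higher in P1 iMGCs than in D150-ROs in 12 of 17 tested and lower in 3 (median 1.96). MYH9 stood at 5.67 ± 0.06 (edgeR, adjusted p = 6.6e-19), MYL12A at 3.72 and CNN2 at 3.70, while MYH14, TAGLN3 and TMOD2 were lower at -4.72, -2.01 and -1.25. In D70-ROs and in D150-ROs 8 of 17 were lower than in hiPSCs, with MYH9, CNN2 and TPM3 at the largest falls both times, and 2 were higher, TAGLN3 and TMOD2, genes known from neurons. Between organoid ages MYL6B, TAGLN3 and CNN2 fell most, by 1.88, 1.80 and 1.78 on the log2 scale. By edgeR 0 of the 16 tested were called between P1 and P5, and 6 of them had an unadjusted p under 0.05, with DESeq2 and limma also calling 0.

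Of the regulators, 10 of 19 were higher in P1 iMGCs than in D150-ROs and 1 lower (median 1.07). SRF measured 27.72 to 34.78 FPKM in hiPSCs, 10.13 to 11.81 in D70-ROs, 11.58 to 12.31 in D150-ROs, 18.24 to 20.87 at P1 and 16.29 to 18.68 at P5. It was lower in D70-ROs than in hiPSCs at a log2 fold change of -1.66 and higher at P1 than in D150-ROs by 1.34. MYOCD, the gene of myocardin, was at 1.27 to 1.93 FPKM in D70-ROs, 1.85 to 1.95 at P1, 1.31 to 1.55 at P5 and at most 0.18 in hiPSCs and D150-ROs, and it was higher at P1 than in D150-ROs by 4.75 ± 0.18 (edgeR, adjusted p = 5.7e-13). The other myocardin family cofactors MRTFA and MRTFB were called in no comparison, the nearest being MRTFB from hiPSCs to D150-ROs just under 2-fold, with log2 fold changes of 0.01 and 0.19 from D150-ROs to P1.

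GATA6, a transcription factor of smooth muscle and endoderm, was higher at P1 than in D150-ROs by 6.73 and lower at P5 than at P1 at -1.92 ± 0.15 (edgeR, adjusted p = 3.3e-10). GATA6 had only 8 counts over the D150-RO libraries. FHL2, a LIM cofactor of SRF, went from 2.78 to 4.30 FPKM in D150-ROs to 129.2 to 135.13 FPKM at P1 (5.70). MEF2C was at -1.01 from D150-ROs to P1. In D70-ROs RHOB and MEF2C were higher than in hiPSCs and FHL2 and KLF4 lower, in D150-ROs ROCK2, RHOB and MEF2C were higher and PPP1R14A, FHL2 and KLF4 lower, and between organoid ages MEF2C, MYLK and ROCK2 were higher and MYOCD and PPP1R14A lower.

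Of 23 striated muscle genes, 4 were tested between D150-ROs and P1 iMGCs, where TNNT1, the slow skeletal troponin T, was higher by 3.96 and MYL4 and MYH3 lower at -4.04 and -3.14. Their summed FPKM was 92.4 to 95.8 in hiPSCs, most of it TNNT1, 42.7 to 70.0 in D150-ROs, most of it MYL4, and 15.8 to 16.7 at P1. TNNT1 and TNNT2 were lower in both organoid ages than in hiPSCs, as were ACTC1 and TNNC1, and MYL4 was higher in both, with MYH3 in D150-ROs. Between organoid ages MYL4, MYH3 and ACTC1 were higher and TNNC1, TNNT1 and TNNI3 lower, and between P1 and P5 edgeR called 0 of 3 tested, 1 of them with an unadjusted p under 0.05, as DESeq2 and limma called 0.

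**Figure D5:**
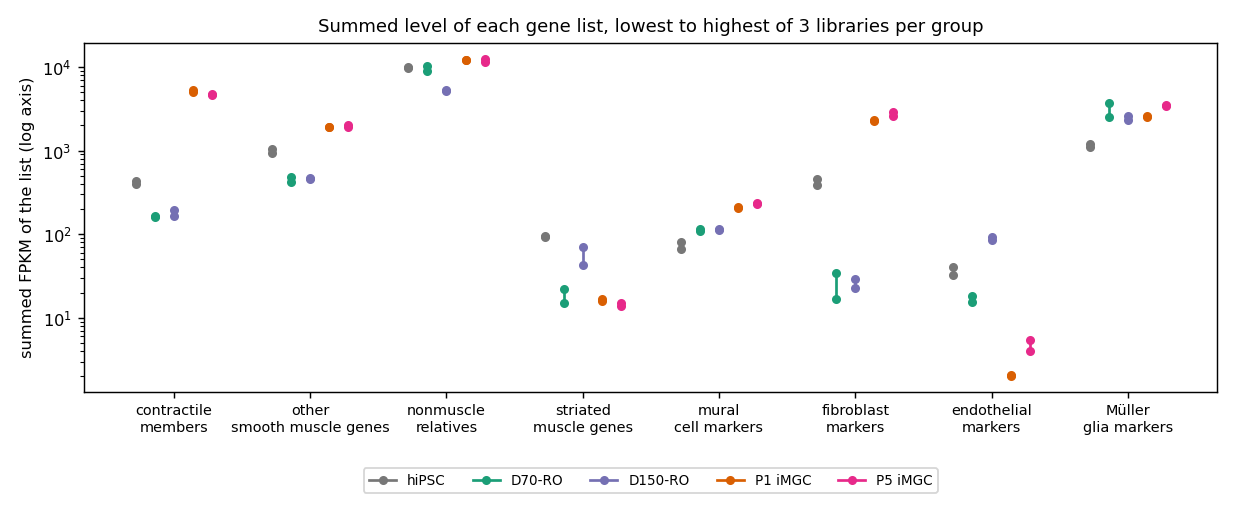
Summed FPKM of each gene list on a log axis, drawn from the lowest to the highest of the 3 libraries of each group. The contractile genes, the other smooth muscle genes and the nonmuscle relatives are highest in both iMGC groups. So are the mural cell markers and the fibroblast markers, while the endothelial markers are lowest there.

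Markers of other cells that use these genes moved in the same libraries. The 14 markers of mural cells (pericytes and vascular smooth muscle) summed to 113 to 115 FPKM in D150-ROs, 204 to 209 at P1 and 228 to 235 at P5. Of 12 tested, 6 were higher in P1 iMGCs than in D150-ROs and 3 lower, against 20.0% and 24.1% of all genes, with CSPG4 (6.91), ANPEP (5.78) and RGS5 (4.21) higher and HEYL (-4.75), TBX2 (-3.06) and NDUFA4L2 (-1.85) lower. ANPEP had only 10 counts over the D150-RO libraries. HIGD1B and FOXF2, listed as defining markers, had no count at P1, but each had only 1 count over the D150-RO libraries as well. PDGFRB, the highest of the 14 at P1, averaged 16.2 FPKM in D150-ROs and 62.65 at P1. MCAM averaged 23.3 FPKM in D150-ROs and 29.6 at P1. The 12 fibroblast markers summed to 23.0 to 28.9 FPKM in D150-ROs, 2252 to 2352 at P1 and 2603 to 2865 at P5, of which COL1A1 gave a mean of 2000 at P1. Of 11 tested, 9 were higher and 1, PDGFRA, was lower (median 5.71), and COL1A1 had a log2 fold change of 10.36 ± 0.08 (edgeR, adjusted p = 6.7e-20).

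From P1 to P5 PRRX1 (6.67), POSTN (2.44) and FAP (2.23) were higher and DCN (-1.75) and COL3A1 (-1.26) lower among fibroblast markers, and KCNJ8 was higher by 1.5 among mural markers. PRRX1 had only 3 counts over the P1 libraries and averaged 1.75 FPKM at P5. The 8 endothelial markers summed to 32.6 to 40.2 FPKM in hiPSCs, 15.7 to 18.2 in D70-ROs, 86.0 to 92.7 in D150-ROs, 2.02 to 2.09 at P1 and 4.05 to 5.38 at P5, most of it KDR in D150-ROs. The defining markers PECAM1, VWF and CDH5 averaged at most 0.65 FPKM in every group. Of 2 tested from D150-ROs to P1, TIE1 was higher by 5.72 and KDR was lower at -6.94, and TIE1 was higher again from P1 to P5 by 1.30. TIE1 had only 7 counts over the D150-RO libraries. In D70-ROs, where ACTA2 was at 17.89 to 29.49 FPKM, the mural list summed to 110 to 115 FPKM, most of it TBX2, and the fibroblast list to 16.8 to 34.3. The part of these other cell types in the levels of the contractile genes was not tested.

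The genes whose pattern was most like the mean of the members were NID2, CAP1, RSU1, SLC38A2 and DYSF, with Pearson's r of 0.995, 0.995, 0.994, 0.992 and 0.991 over 15 libraries on log2(FPKM + 1), among 13915 genes. The libraries fall into iMGCs and the rest and share group and table, so this is a description only. Of the contractile genes themselves ACTG2 was closest to the mean pattern at 0.988 and LMOD1 farthest of those compared at 0.231. NID2, a basement membrane nidogen, measured 0.05 to 0.14 FPKM in D150-ROs, 18.99 to 19.51 at P1 and 9.18 to 10.52 at P5. DYSF, the membrane repair protein dysferlin, went from 0.02 to 0.05 FPKM in D150-ROs to 86.38 to 89.76 at P1 and 85.21 to 87.0 at P5.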

How the data were processed

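The 15 libraries were made from poly(A) RNA. Reads were aligned by the authors in HISAT2, put together into transcripts in StringTie and counted per gene in RSEM. Versions, genome build and annotation are not given in the sources used here. The authors deposited expected counts (estimated reads per gene, not normalized), rounded here to whole numbers, beside FPKM, a level corrected by the authors for length and depth. Of the deposited tables, the one that sets D150-ROs beside iMGCs of unnamed passage was not used.

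All 19684 gene identifiers were found in GENCODE 29, which gave symbols and positions beside a gene name table that held 19604 of them. Groups came from the sample labels. edgeR 4.0.16 (quasi-likelihood test, TMM factors) in R 4.3.3 compared 2 groups at a time, with genes of at least 1 FPKM in at least 3 libraries. A gene was called at a Benjamini-Hochberg adjusted p under 0.05 and at least a 2-fold change. Standard errors were taken from the fold change and its F value. Alternatives used limma 3.58.1 and DESeq2 1.42.0. The fits were tested on simulated data. The series names 2 sequencing companies and a correction between batches for joint analyses, and the methods name 1 company. No source says which libraries belonged to which, so batch and group cannot be told apart. Between replicates, chi-square per degree of freedom was 2.33 to 34.2, so every pair differed beyond sampling noise.

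The members and the gene lists were chosen with earlier results of these data known. Named were all 10 members, SRF, MYOCD, MRTFA and MRTFB, of each other list and comparison up to 3 called genes with the largest rise and the largest fall, family members where shares are given, and the 5 genes most like the members' mean pattern. A gene that this rule names is not reported here. Promoters came from RefSeq.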

Additional observations from a re-analysis of the deposited data

How the results depend on the processing

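Of 150 recomputed counts of contractile genes called, 145 stayed within 1.5 times the count reported, as did 145 of 150 for the pathway genes. From D70-RO to D150-RO the only member called higher was TPM1, a count of 1 that fell to 0 with upper-quartile factors and when tested against a 2-fold change, and ranged from 0 to 1 with a library left out. At a limit of 5 FPKM, 4 pathway genes were higher in D70-ROs than in hiPSCs, 5 lower from D70-RO to D150-RO and 0 lower at P5 than at P1, because fewer genes were tested. From P1 to P5, 2 pathway genes were higher with no filter and 1 lower with limma on log2(FPKM + 1). Changes that turned sign were all small. LMOD1 between organoid ages stood at 0.1421 and 0.15 with limma at pseudocounts of 1 and 0.1, CALD1 from P1 to P5 at -0.0149 and -0.015 and with a library left out from -0.0076 (without P1 iMGC replicate 2) to 0.0621, and TAGLN with a library left out from -0.0648 to 0.0010 (without the same library). Their cause was not tested. With summed CPM (counts scaled to library size) in place of FPKM, 10 of 35 family shares stayed within 1 SD.

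Equally numbered replicates deviated from their group means with correlations between -0.074 and 0.337, so no strong pairing by number was seen. These values cannot exclude that equally numbered libraries shared an experiment. With the replicate block, 8 contractile genes were again called higher from D150-ROs to P1 iMGCs and 2 lower from P1 to P5, and 36 and 10 pathway genes higher and lower from D150-ROs to P1.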
